A study of Mus musculus with 2 samples.

Results

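The circadian clock genes described here were Arntl and Clock (activators), Per1, Per2, Per3 and Ciart (repressors), Nr1d1 and Nr1d2 (nuclear receptors of the stabilizing loop) and Dbp and Tef (output factors). These 10 genes were taken by symbol from the 27998 genes of the count tables, and each symbol was found once in both libraries. The cells came from lungs of mouse pups, whose strain is C57BL/6 in the labels and C57BL/6J in the methods of the study. The room air library held cells of 8 pooled mice kept at 21% O2, and the hyperoxia library held cells of 8 pooled mice kept at 80% O2 from the day of birth (P0) to P14, a mouse model of bronchopulmonary dysplasia. Both groups were wild type, and their lungs were digested with enzymes at P14 before single-cell RNA sequencing. Each group was thus 1 library, in which single mice could not be told apart. No test of oxygen was possible, and every interval given below covers counting error only. The hour of the day at which either group was collected is not given in the sources used here, so a difference in collection time and a difference in oxygen cannot be told apart.

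The mammalian clock is a feedback loop of transcription that runs in nearly every cell. The proteins of Arntl (also called BMAL1) and Clock pair on E-box sequences and switch on the Per and Cry genes, whose proteins enter the nucleus and repress that pair, so that the loop takes about a day. Nr1d1 and Nr1d2 (REV-ERBs) repress Arntl in turn, and Dbp and Tef carry the rhythm to other genes through D-box sequences. In the lung the clock is known to time airway defence and the recruitment of neutrophils, and Per1 is also an acute target of glucocorticoids and of cAMP signalling.

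The promoters of Per1, Per3 and Ciart are shown because each window printed holds at least 2 of the motifs searched and because these genes differed between the libraries. RefSeq promoter windows of the GRCm38.p6 build, 250 bases before to 50 bases after a start site, were at hand for 9 of the 10 genes, with 14 windows in all. Both strands were searched for the E-box CACGTG, its variant CACGTT, the D-box TTATGTAA, its variant TTATGCAA, the core TAGGTCA that REV-ERBs can bind and the cAMP response core TGACGTC. The E-box reads the same on both strands, none of these motifs contains another, and the matches shown did not overlap. The 250 bases before a start site of each gene are given 5′ to 3′ on the strand of the gene, with matches in capitals.
Ciart, chr3:95882229-95882478, minus strand: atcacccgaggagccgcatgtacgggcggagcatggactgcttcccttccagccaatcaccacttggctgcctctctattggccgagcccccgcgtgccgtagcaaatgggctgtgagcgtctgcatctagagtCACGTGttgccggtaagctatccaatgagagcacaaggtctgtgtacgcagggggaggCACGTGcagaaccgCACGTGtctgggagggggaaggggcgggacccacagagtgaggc
Per1, chr11:69098699-69098948, plus strand: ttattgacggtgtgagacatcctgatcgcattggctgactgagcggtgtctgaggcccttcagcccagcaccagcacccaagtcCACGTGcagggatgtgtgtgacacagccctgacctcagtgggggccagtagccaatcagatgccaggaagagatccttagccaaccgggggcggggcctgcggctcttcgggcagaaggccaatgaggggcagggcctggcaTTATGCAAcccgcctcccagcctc
Per3, chr4:151044666-151044915, minus strand: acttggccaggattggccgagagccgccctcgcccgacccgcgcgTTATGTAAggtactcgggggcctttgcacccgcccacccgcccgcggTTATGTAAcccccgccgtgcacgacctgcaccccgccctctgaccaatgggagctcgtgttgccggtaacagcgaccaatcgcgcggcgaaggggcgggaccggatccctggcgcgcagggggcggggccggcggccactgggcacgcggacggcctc

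The Ciart window held 3 E-boxes, which 0.0883% of the 32851 windows of this length in the table did, against 7.15% with at least 1. Per3 held 2 D-boxes, found in 0.0213% of windows, against 0.938% with at least 1. Per1 held 1 E-box and 1 D-box variant, the latter present in 0.743% of windows, and its second window held 1 cAMP response core (3.21% of windows). The following shorter stretches show the match in that second window and examples from 3 other clock genes.
Per1, second window, chr11:69100009-69100037, plus strand: agctcagcggcTGACGTCggtttccctgg
Tef, first window, chr15:81802535-81802562, plus strand: tgctgtggctcCACGTGctgcagctggc
Nr1d1, chr11:98775389-98775416, minus strand: gcacagatctcAACGTGccggctgctgg
Arntl, second window, chr7:113207530-113207558, plus strand: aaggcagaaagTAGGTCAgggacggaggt
The capitals mark the cAMP response core, the E-box, the E-box variant on the opposite strand (4.68% of windows hold it) and the REV-ERB core (2.61%). The windows of Dbp, Clock and Nr1d2 held none of these letters. A match is a description of the sequence and not a mapped binding site.

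The libraries held 4234 (room air) and 13223 (hyperoxia) barcodes, of which 3680 and 10472 were kept, with medians of 8067 and 7228 UMIs (unique molecular identifiers, counted transcript molecules) per cell. They shared 17 barcodes, 0.402% of the room air and 0.129% of the hyperoxia barcodes. The kept cells fell into 5 lineages, called endothelial-like, stromal-like, epithelial-like, myeloid-like and lymphocyte-like from markers, and written below without the suffix. Their room air and hyperoxia cells numbered 1037 and 2541, 849 and 2602, 292 and 1228, 759 and 1435, and 743 and 2666, in that order. Of the cell types named within them, 16 had at least 50 cells in each library. RNA of other cells was present as well. The summed level of 8 epithelial markers in the other 4 lineages was 345 to 472 CPM (counts of a gene in every 1000000 UMIs) in room air and 466 to 931 CPM in hyperoxia, highest in hyperoxia lymphocytes, and no marker of that list was at 0 there. The 8 myeloid markers summed to 9950 and 12792 CPM in epithelial cells, of which Lyz2, a gene that AT2 (alveolar type 2 cells) are known to express, made up 9837 and 12733 CPM. In AT1 (alveolar type 1 cells) Lyz2 stood at 4097 and 459 CPM. The part of this RNA in the clock gene values was not tested.

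Levels are given as CPM, the UMIs of a gene summed over all cells of a lineage or cell type in 1 library, scaled to a total of 1000000 UMIs of those cells, and differences as log2 ratios, hyperoxia divided by room air. Per1 and Per2 had ratios above 0 and Per3 had ratios below 0 in all 5 lineages, while the other 7 genes had ratios of both signs. The Per3 intervals held 0 in myeloid cells (-0.29) and lymphocytes (-0.01). Of the 5527 genes tested in every lineage, those at a mean of at least 10 CPM, 23% had ratios of the same sign in all 5. Dbp, Per3 and Ciart had their lowest ratios in endothelial cells, where the Arntl ratio was above 0. In lymphocytes none of the 10 genes, of which 5 reached a mean of 10 CPM there, had an interval below 0, and 13.3% of the genes tested did. By the sign of the ratio alone, the clock genes did not share a single direction in any lineage, and 7 of them did not share one across lineages. Intervals on opposite sides of 0 in a pair of lineages were found for Nr1d2, Arntl, Clock and Ciart only.

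**Figure D1:**
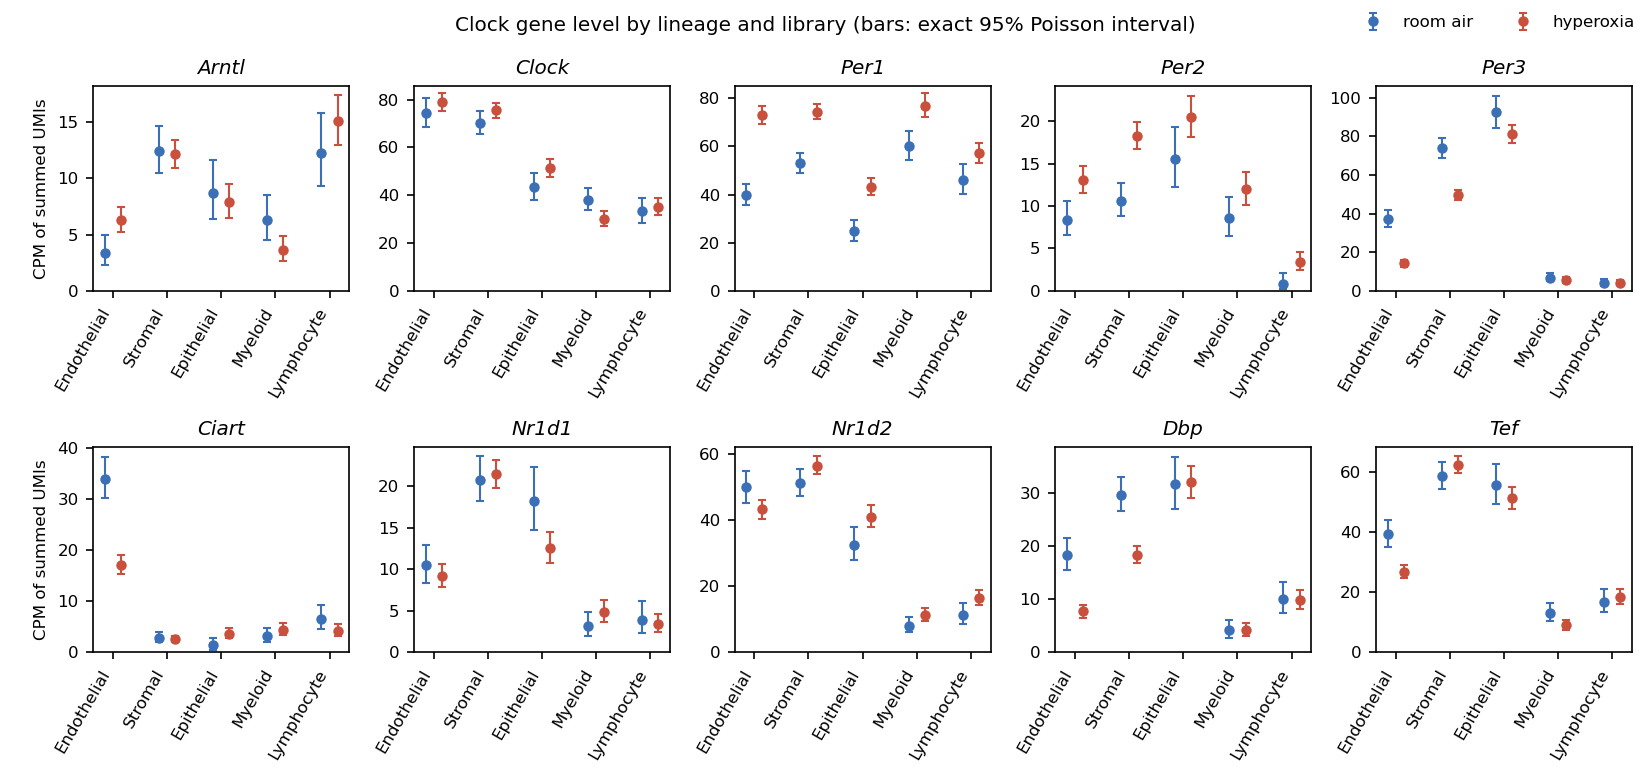
Level of each clock gene in the 5 lineages (CPM of summed UMIs, y axis, each panel on its own scale from 0) in the room air (blue) and hyperoxia (red) library, with exact 95% Poisson intervals. Red points lie above blue ones in all 5 lineages for Per1 and Per2, and the intervals of Dbp, Per3 and Ciart do not meet in endothelial cells.

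Of the 50 pairs of gene and lineage, 2 had a log2 ratio of -1 or below, Dbp and Per3 in endothelial cells, where 2.82% of the 8405 genes tested did. A further 2 lay at 1 or above, Per2 in lymphocytes (0.723% of genes tested there) and Ciart in epithelial cells (1.16%), both under the limit of a mean of 10 CPM that the genes tested had to reach. In all 34 pairs reached that limit, 8 genes in endothelial, 9 in stromal, 8 in epithelial, 4 in myeloid and 5 in lymphocyte cells. The median log2 ratio of the 10 genes was -0.20 in endothelial cells, beside 0.00 over all genes tested, and between 0.07 and 0.18 in the other lineages, beside medians of -0.08 to 0.06. At 1 or above lay 1.83% of the genes tested in endothelial, 1.6% in stromal and 1.35% in myeloid cells, and at -1 or below 1.24% in stromal, 4.92% in epithelial, 2.41% in myeloid and 0.263% in lymphocyte cells, with 0 clock genes in each of these groups.

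The interval of the ratio lay above 0 in 17 pairs and below 0 in 12. In endothelial cells 3 of the 10 genes lay above 0, where 31.2% of genes tested did, and 5 below 0, where 30.1% did. In stromal cells these counts were 3 (28.3%) and 2 (27.5%), in epithelial cells 5 (28.2%) and 2 (21%), in myeloid cells 3 (17.4%) and 3 (32.9%), and in lymphocytes 3 (21.6%) and 0 (13.3%). These counts cover all 10 genes, while the shares cover genes at a mean of 10 CPM. At that limit 2 of 8 endothelial, 3 of 9 stromal, 4 of 8 epithelial, 2 of 4 myeloid and 2 of 5 lymphocyte genes lay above 0. Below 0 lay 5, 2, 2, 2 and 0 of them, in the same order. Counts of this kind say little about clock genes as a group, since many genes differed beyond counting error, and the paragraphs that follow give the values gene by gene. A log2 ratio of the same sign in all 5 lineages was found for 3 of the 10 clock genes and for 23% of the 5527 genes that reached the limit in every lineage. Tef, Per1 and Clock were the clock genes within those 5527.

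**Figure D2:**
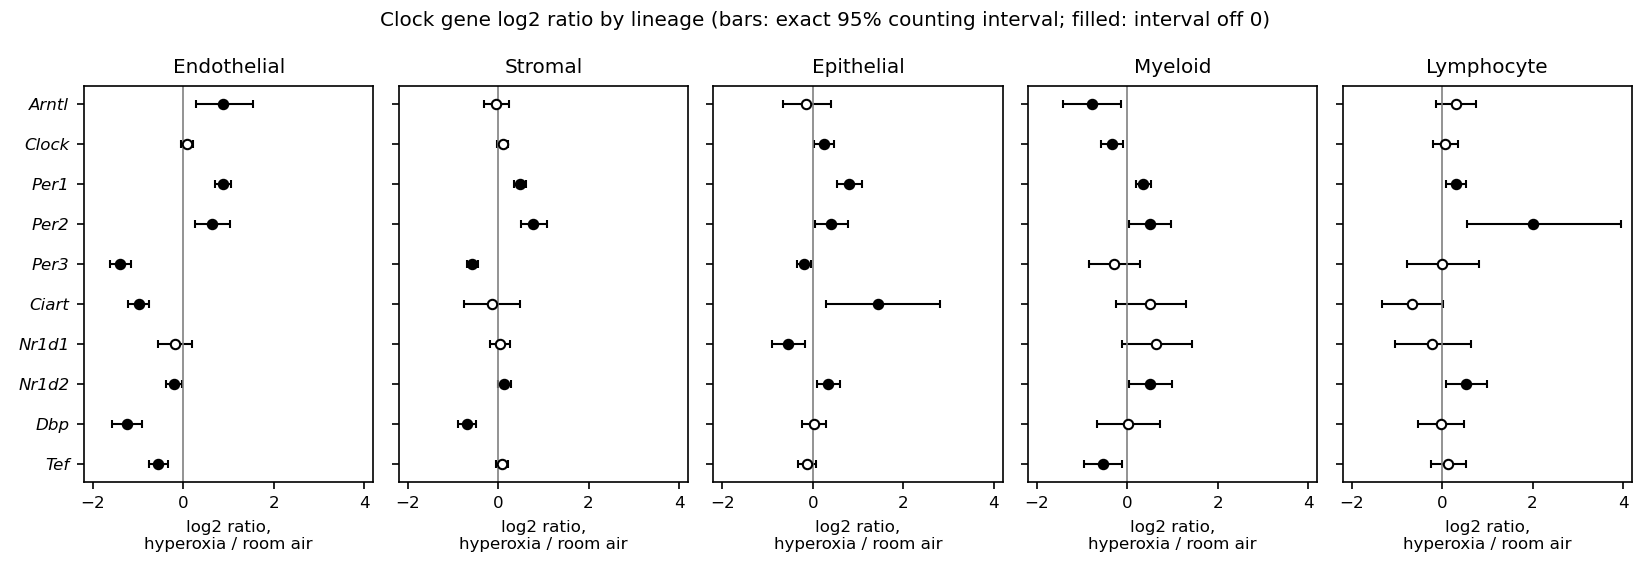
Log2 ratio, hyperoxia divided by room air (x axis), for the 10 clock genes in each lineage, with exact 95% intervals for counting error, filled where the interval leaves 0 out. The points of Per1 and Per2 lie right of 0 in every panel, and those of Dbp, Per3, Ciart and Tef lie left of 0 in the endothelial panel.

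Among the activators, Arntl (ENSMUSG00000055116, chromosome 7, 113207465 to 113314126 on GRCm38, plus strand) encodes the partner without which the clock does not run. Its level in endothelial cells was 3.41 CPM in room air (95% interval 2.26 to 4.92, 28 UMIs) against 6.29 CPM in hyperoxia (5.24 to 7.48, 126 UMIs), which is a log2 ratio of 0.88 (0.28 to 1.53). In myeloid cells the order was the other way round, with 6.29 CPM in room air against 3.64 CPM in hyperoxia (log2 ratio -0.79, -1.43 to -0.15). Stromal cells (12.4 and 12.1 CPM), epithelial cells (8.71 and 7.91 CPM) and lymphocytes (12.2 and 15.1 CPM) had intervals of the ratio that held 0. In room air, neighbours in the order stromal, lymphocyte, epithelial, myeloid and endothelial all had intervals that met. In hyperoxia lymphocytes and stromal cells stood above epithelial and endothelial cells, and myeloid cells stood below these. Among cell types, Arntl was higher in hyperoxia B cells (9.18 and 17.7 CPM, log2 ratio 0.94, 0.22 to 1.73), the 1 type of 16 with an interval off 0. General capillary cells (gCap) and aerocytes (aCap), the capillary types of the alveolus, had log2 ratios of 0.88 and 1.26 with intervals that reached below 0.

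Clock (ENSMUSG00000029238, chromosome 5, 76209868 to 76304792, minus strand), the other activator, is often reported as the clock gene with the weakest daily rhythm. The endothelial level was 74.5 CPM in room air against 78.9 CPM in hyperoxia, and the stromal level 70.3 and 75.4 CPM. Both log2 ratios (0.08 and 0.10) had intervals that held 0. In both libraries these lineages stood above epithelial cells (43.4 and 51.4 CPM), while myeloid cells (38.2 and 30.1 CPM) and lymphocytes (33.4 and 35.2 CPM) had intervals that met. The ratio was 0.25 (0.03 to 0.47) in epithelial and -0.34 (-0.58 to -0.11) in myeloid cells. Neither sign held under every way of counting: the epithelial ratio was -0.56 with each cell thinned to 2000 UMIs, and the myeloid ratio 0.07 as a mean over cell types. Among cell types the intervals lay above 0 in T cells (20.8 and 36.0 CPM, 0.79), aCap (54.7 and 82.5 CPM, 0.59), AT1 (0.59) and alveolar fibroblasts (0.34). Alveolar macrophages carried the lowest ratio (49.5 and 27.5 CPM, -0.85, -1.22 to -0.47), in a cell type where 37.4% of genes tested had an interval below 0.

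Per1 (ENSMUSG00000020893, chromosome 11, 69095217 to 69109960, plus strand) encodes a repressor of the Arntl and Clock pair and answers quickly to hormones and stress. It was higher in hyperoxia in every lineage. Endothelial cells had 39.8 CPM (35.6 to 44.3, 327 UMIs) in room air against 73.0 CPM (69.3 to 76.9, 1464 UMIs) in hyperoxia, 1.84-fold. Epithelial cells had 24.8 and 43.3 CPM, stromal cells 53.1 and 74.4 CPM, myeloid cells 60.2 and 77.0 CPM, and lymphocytes 46.1 and 57.1 CPM. The intervals of the levels in room air and hyperoxia did not meet in any lineage. The log2 ratios were 0.88 in endothelial, 0.81 in epithelial, 0.49 in stromal, 0.35 (0.19 to 0.53) in myeloid and 0.31 (0.09 to 0.54) in lymphocyte cells. An interval above 0 in all 5 lineages was reached by 2.44% of the 5527 genes. The endothelial ratio exceeded the stromal by 0.39 (0.17 to 0.61), the myeloid by 0.52 (0.28 to 0.77) and the lymphocyte ratio by 0.57 (0.28 to 0.85), so that the size of the Per1 difference was not alike across lineages by counting error. Of the other lineages, epithelial cells also stood above stromal cells, by 0.32 (0.01 to 0.63), although the epithelial ratio ran from 0.38 as a mean over cells to 1.62 with thinned cells. The myeloid ratio ran from 0.11 with stricter cell filters to 0.84 as a mean over cells. For it 3 of 12 alternatives lay outside the interval, and its range met the endothelial one (0.72 to 0.96). Its cell types ran from 0.03 in alveolar macrophages to 0.72 in neutrophils. The stromal and lymphocyte ratios reached 0.54 and 0.36 at most, below the endothelial range.

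The Per1 ratio was above 0 in 16 of 16 cell types, which held for 1.23% of the 3820 genes tested in every type, and its interval was above 0 in 12. By cell type such an interval was found for 8.27% (AT1) to 24.8% (gCap) of genes tested, and one below 0 for 6.74% (nonclassical monocytes) to 37.4% (alveolar macrophages). The types share 2 libraries and are not replicates of the exposure. The Per1 ratio was highest in aCap (34.5 and 82.4 CPM, log2 ratio 1.26, 0.83 to 1.72) and lowest in alveolar macrophages (31.4 and 32.0 CPM, 0.03). AT2, which make surfactant, had 22.2 and 41.2 CPM, and AT1, the flat cells of gas exchange, 36.7 and 64.7 CPM. Smooth muscle cells had 40.0 and 67.4 CPM and pericytes 42.2 and 66.9 CPM. Neutrophils held the highest level in both libraries, 169 CPM (131 to 214) in room air against 279 CPM (249 to 311) in hyperoxia, with no other type's interval reaching theirs.

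Per2 (ENSMUSG00000055866, chromosome 1, 91415982 to 91459324, minus strand), a close relative whose loss disrupts the rhythm of mice, had fewer UMIs but the same direction. The stromal level was 10.6 CPM (8.83 to 12.7) in room air against 18.3 CPM (16.7 to 19.9) in hyperoxia, which is a log2 ratio of 0.78 (0.50 to 1.08). Endothelial cells had 8.39 and 13 CPM (0.63), myeloid cells 8.53 and 12.0 CPM (0.49), and epithelial cells 15.5 and 20.5 CPM (0.40, 0.04 to 0.78). In lymphocytes the ratio of 2.02 (0.55 to 3.96) rested on 4 UMIs in room air and 40 in hyperoxia, at 0.830 and 3.37 CPM. Lymphocytes stood below every other lineage in both libraries. Of the 16 cell types 14 had a ratio above 0, 4 of them with the interval: myofibroblasts (6.89 and 14.4 CPM), smooth muscle cells (10.6 and 24.5 CPM), alveolar fibroblasts (13.8 and 19.5 CPM) and B cells (1 and 18 UMIs, log2 ratio 3.1, 0.43 to 8.48). In these 4 types 22.4%, 16.6%, 22.9% and 18.7% of genes tested had such an interval, in the same order. How many of all genes had a ratio above 0 in 14 types was not counted. Room air counts were 1 UMI in T cells and in classical monocytes and 2 in nonclassical monocytes. In the capillary types the ratios were 0.21 (gCap) and -0.06 (aCap). aCap carried more Per2 than gCap in both libraries (21.7 against 5.33 CPM in room air, 20.8 against 6.17 CPM in hyperoxia). They made up 159 of 1037 endothelial cells in room air and 1132 of 2541 in hyperoxia, a share that differed between the libraries beside the endothelial ratio. With gCap, aCap and artery cells weighted alike the ratio was 0.33. Of these, artery cells stood at 0.83 (-0.55 to 2.44) from 6 and 19 UMIs.

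Per3 (ENSMUSG00000028957, chromosome 4, 151003652 to 151044665, minus strand) is the third Per gene, strongly rhythmic in peripheral organs but dispensable for the central clock. Its direction was opposite to that of Per1 and Per2. Endothelial cells had 37.3 CPM (33.3 to 41.8, 307 UMIs) in room air against 14.2 CPM (12.6 to 16, 285 UMIs) in hyperoxia, which is a log2 ratio of -1.39 (-1.63 to -1.16). Stromal cells had 74.0 and 49.8 CPM (-0.57, -0.69 to -0.45), and epithelial cells 92.5 and 81.2 CPM (-0.19, -0.34 to -0.03). Myeloid cells (6.74 and 5.50 CPM) and lymphocytes (4.15 and 4.12 CPM) had ratios of -0.29 and -0.01 with intervals that held 0. The endothelial ratio was lower than the stromal by 0.82 (interval of the difference -1.09 to -0.55) and lower than the epithelial by 1.21 (-1.49 to -0.92). Levels ran from high to low in the order epithelial, stromal, endothelial and then the blood lineages in both libraries, and the intervals met between myeloid cells and lymphocytes alone.

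Within endothelial cells the Per3 ratio was -1.92 (-2.33 to -1.52) in gCap (39.5 and 10.4 CPM), -0.90 in artery cells and -0.67 (-1.33 to 0.04) in aCap. Pericytes, which wrap capillaries, had 69.1 and 26.7 CPM (-1.37, -1.89 to -0.88). Alveolar fibroblasts (-0.64), myofibroblasts (-0.43), smooth muscle cells (-0.42) and AT2 (-0.40) had smaller differences with intervals below 0. The ratio was below 0 in 14 of the 15 cell types that had UMIs in both libraries, 7 of them with the interval. T cells were the exception (4 and 16 UMIs). Alveolar macrophages lay at -0.0008, and neutrophils (3 and 4 UMIs) and classical monocytes (3 and 1 UMIs) had few counts. The share of all genes with this pattern was not counted. In gCap 2.46% of the genes tested had a ratio of -1 or below. AT2 held the highest level in both libraries, 112 and 85.0 CPM. The gCap of the libraries lay mostly in different clusters: 1 cluster held 12 room air and 734 hyperoxia cells and another 535 and 23, and the same held for aCap, alveolar fibroblasts, myofibroblasts, pericytes, AT2 and alveolar macrophages. Clock genes had no part in forming the clusters.

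Ciart (ENSMUSG00000038550, chromosome 3, 95878503 to 95882251, minus strand), a repressor also known as Chrono that binds the Arntl and Clock pair, was mainly endothelial in these lungs. In room air endothelial cells had 34.1 CPM (30.2 to 38.3), against 1.36 to 6.64 CPM in the other lineages, and in hyperoxia 17.1 CPM (15.3 to 19.0), against 2.58 to 4.45 CPM. The endothelial log2 ratio was -0.99 (-1.23 to -0.76). It was -0.60 in gCap (43.3 and 28.7 CPM), -1.07 in aCap (22.5 and 10.7 CPM) and -1.22 in artery cells (20.2 and 8.67 CPM), each with its interval below 0. T cells also had an interval below 0, at 12 and 14 UMIs (-1.46, -2.68 to -0.22). No UMI was seen in AT1 of either library, where 3 UMIs would be 4.24 CPM in room air against 2.90 CPM in hyperoxia, the level that a count of 0 allows. In epithelial cells the ratio was 1.44 (0.29 to 2.82) from 7 and 51 UMIs, and in neutrophils 3.02 (0.40 to 8.38) from 1 and 23 UMIs. The hyperoxia neutrophils reached 20.4 CPM (12.9 to 30.6), next to gCap. The 8 endothelial markers summed to 136 and 130 CPM in the epithelial cells of both libraries, beside 12293 and 12819 CPM in endothelial cells.

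Nr1d1 (ENSMUSG00000020889, chromosome 11, 98767932 to 98775333, minus strand), the REV-ERB alpha receptor that represses Arntl and many metabolic and inflammatory genes, had ratios of both signs. Stromal cells had 20.7 and 21.4 CPM (log2 ratio 0.05, -0.17 to 0.27) and endothelial cells 10.5 and 9.18 CPM (-0.19, -0.57 to 0.20). Epithelial cells had 18.2 CPM (14.7 to 22.3) in room air against 12.5 CPM (10.7 to 14.5) in hyperoxia, a ratio of -0.54 (-0.91 to -0.16). The stromal value averaged opposite differences among its cell types. Myofibroblasts, the contractile cells of growing septa, had 15.5 and 28.1 CPM (0.86, 0.48 to 1.26), whereas pericytes had 41.5 and 21.3 CPM (-0.96, -1.57 to -0.36) and alveolar fibroblasts 19.1 and 11.8 CPM (-0.70, -1.14 to -0.23). In myeloid cells and lymphocytes the levels stayed under 5 CPM.

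Nr1d2 (ENSMUSG00000021775, chromosome 14, 18204054 to 18239127, minus strand), the REV-ERB beta receptor with a largely shared role, was lower in hyperoxia endothelial cells (49.9 and 43.2 CPM, log2 ratio -0.21, -0.38 to -0.03). The other lineages had ratios above 0: 0.14 in stromal (51.2 and 56.5 CPM), 0.34 in epithelial (32.5 and 41.0 CPM), 0.50 in myeloid (8.08 and 11.4 CPM) and 0.53 in lymphocyte cells (11.4 and 16.5 CPM). The epithelial ratio was -0.24 as a mean over AT2 and AT1, and the endothelial ratio -0.005 as a mean over gCap, aCap and artery cells. The capillary types differed in direction: gCap had 56.1 and 39.5 CPM (-0.50, -0.76 to -0.25) and aCap 28.5 and 48.1 CPM (0.76, 0.27 to 1.28). Myofibroblasts again had a ratio above 0 (60.2 and 86.0 CPM, 0.51, 0.31 to 0.72).

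Dbp (ENSMUSG00000059824, chromosome 7, 45705088 to 45710203, plus strand) encodes a D-box binding activator and is among the genes with the widest daily swings in many organs. Endothelial cells had 18.2 CPM (15.4 to 21.4, 150 UMIs) in room air against 7.68 CPM (6.52 to 9.0, 154 UMIs) in hyperoxia, which is a log2 ratio of -1.25 (-1.58 to -0.91). Stromal cells had 29.6 and 18.4 CPM (-0.69, -0.89 to -0.49). Epithelial cells (31.6 and 31.9 CPM, 0.02, -0.25 to 0.28), myeloid cells (4.19 and 4.21 CPM) and lymphocytes (9.96 and 9.76 CPM) had ratios within 0.03 of 0, with intervals that reached 0.72 at most and -0.68 at least. The difference between the endothelial and the epithelial ratio was -1.26 (-1.69 to -0.84), and that between the stromal and the epithelial ratio -0.71 (-1.04 to -0.38). The Dbp difference was thus not alike across lineages by counting error. Other settings moved these values: the stromal ratio was -1.27 with thinned cells, and the epithelial ratio -0.52 as a mean over AT2 and AT1.

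Within the endothelial and stromal lineages the lower Dbp level lay in 4 of 7 cell types by its interval: gCap (19.6 and 5.29 CPM, log2 ratio -1.89, -2.49 to -1.32), artery cells (28.5 and 10.7 CPM, -1.42), pericytes (49.2 and 18.9 CPM, -1.38) and alveolar fibroblasts (33.6 and 13.3 CPM, -1.33). Ratios in aCap (-0.53), smooth muscle cells (-0.23) and myofibroblasts (0.02) had intervals that held 0. AT2 had 40.4 and 34.4 CPM (-0.23, -0.55 to 0.09). Pericytes and AT2 held the highest levels in room air with intervals that met, and AT2 and smooth muscle cells did in hyperoxia.

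Tef (ENSMUSG00000022389, chromosome 15, 81802421 to 81826863, plus strand), a relative of Dbp that binds the same D-box, was lower in hyperoxia endothelial cells (39.3 and 26.7 CPM, log2 ratio -0.56, -0.76 to -0.35) and myeloid cells (13.2 and 9.06 CPM, -0.54, -0.95 to -0.12). Stromal cells (58.6 and 62.2 CPM), epithelial cells (55.6 and 51.1 CPM) and lymphocytes (16.8 and 18.5 CPM) had intervals that held 0. Both capillary types shared the direction, at -0.55 (gCap) and -0.60 (aCap). The lowest ratio was that of nonclassical monocytes, from 26 and 3 UMIs (-2.0, -4.36 to -0.29). AT1 held the highest level in both libraries, 129 CPM (104 to 158) and 151 CPM (128 to 176), apart from all other types.

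**Figure D3:**
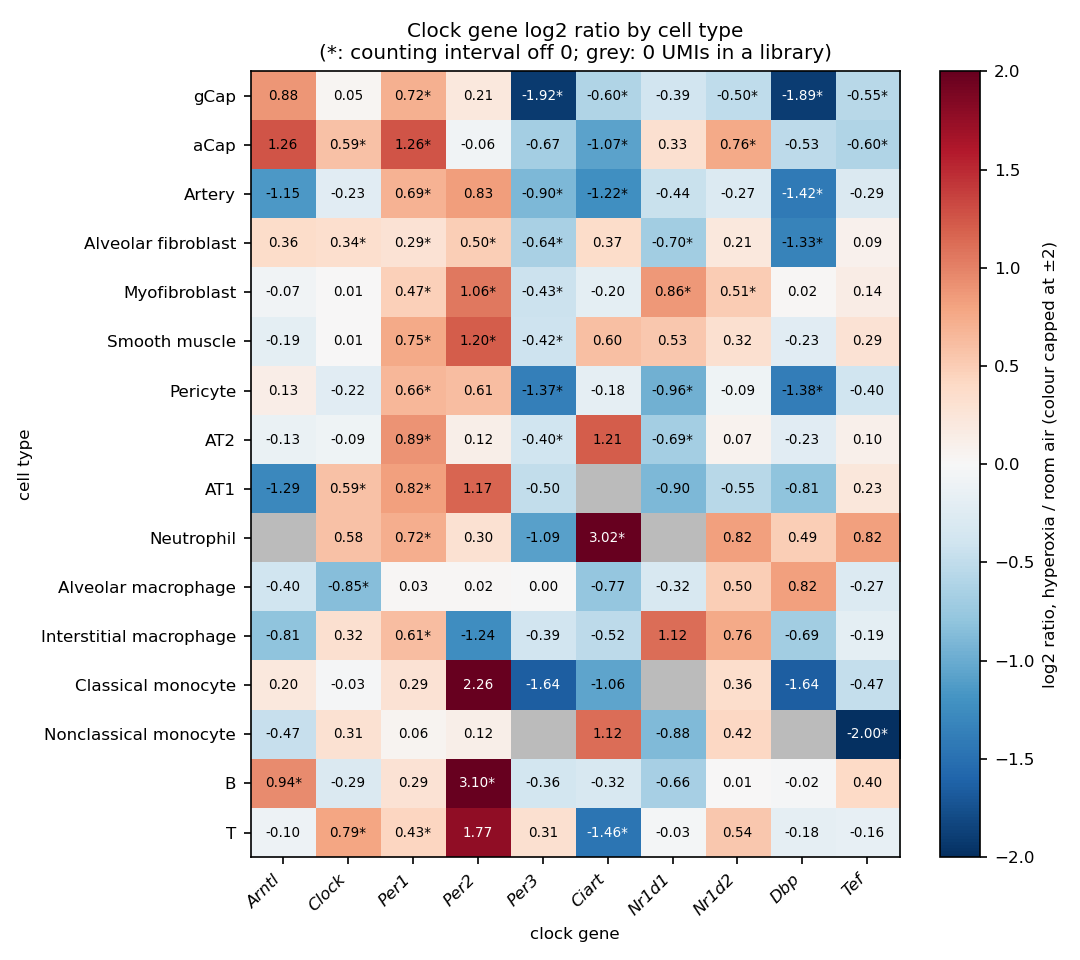
Log2 ratio, hyperoxia divided by room air, of the 10 clock genes (columns) in 16 cell types (rows), coloured from blue (lower in hyperoxia) to red (higher), with an asterisk where the counting interval leaves 0 out and grey where a library had no UMI. The Per1 column is above 0 in all 16 types, and the lowest values of Per3 (-1.92) and Dbp (-1.89) lie in gCap.

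Dbp and Arntl are known to peak at opposite times of the day, and their ratio within 1 library needs no total. In endothelial cells 5.36 Dbp UMIs (3.56 to 8.33) were counted per Arntl UMI in room air against 1.22 (0.960 to 1.56) in hyperoxia. The stromal values were 2.38 (1.96 to 2.91) and 1.52 (1.32 to 1.74). In epithelial cells, by contrast, 3.62 (2.59 to 5.16) and 4.04 (3.27 to 5.02) were counted, and lymphocytes had 0.814 and 0.648. Myeloid cells had 0.667 (0.398 to 1.10) in room air against 1.16 (0.760 to 1.76) in hyperoxia. The intervals of the libraries did not meet in endothelial and stromal cells and met in the other lineages. Among the 11 cell types with at least 5 Arntl UMIs in each library they did not meet in gCap (6.13 and 0.900) and alveolar fibroblasts (3.92 and 1.22). Pericytes had 4.27 (2.40 to 8.06) and 1.5 (0.890 to 2.57), and B cells 1.25 (0.667 to 2.37) and 0.642 (0.444 to 0.921). In AT2 (4.43 and 4.14), smooth muscle cells (1.85 and 1.81), myofibroblasts (1.22 and 1.30) and T cells (0.750 and 0.708) the libraries differed by less than the width of the intervals.

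**Figure D4:**
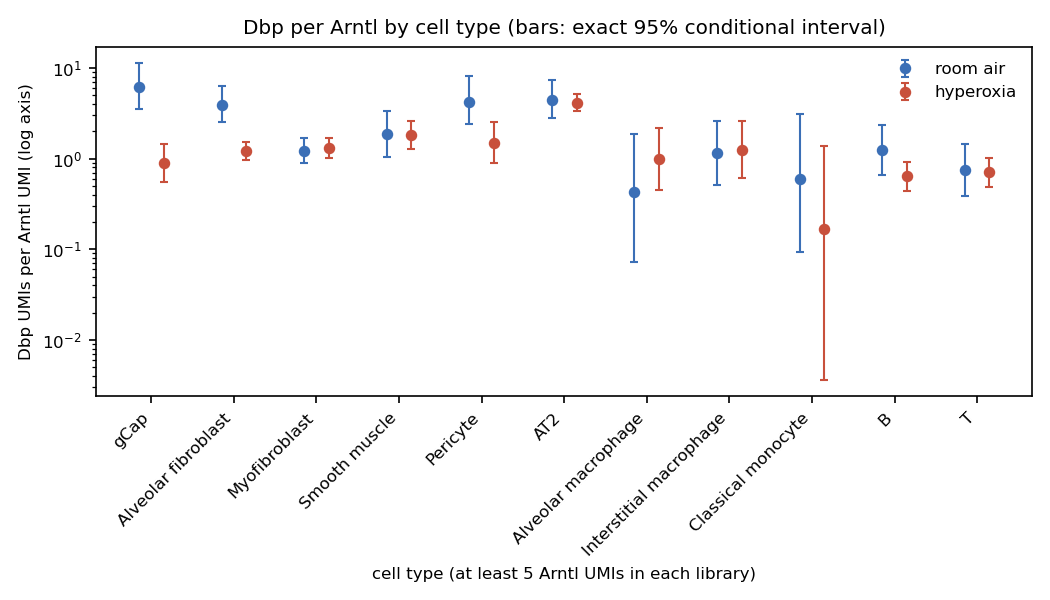
Dbp UMIs per Arntl UMI (log axis) in the 11 cell types with at least 5 Arntl UMIs in each library, for room air (blue) and hyperoxia (red), with exact 95% conditional intervals. The hyperoxia points of gCap (0.900), alveolar fibroblasts (1.22), pericytes (1.5) and B cells (0.642) lie below the room air intervals, which their own intervals meet in pericytes and B cells, while those of AT2 and T cells lie beside the room air points.

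Of 19 further clock genes, 10 in endothelial, 12 in stromal, 10 in epithelial, 11 in myeloid and 12 in lymphocyte cells reached a mean of 10 CPM. Their intervals lay above 0 for 6, 4, 4, 2 and 2 genes (31.2%, 28.3%, 28.2%, 17.4% and 21.6% of all genes tested) and below 0 for 2, 2, 1, 4 and 2 (30.1%, 27.5%, 21%, 32.9% and 13.3%), in the same order. None of these had a log2 ratio of 1 or above, and 1 had a ratio of -1 or below, Btrc in epithelial cells (14.5 and 6.61 CPM, -1.13), named after its value was seen. In AT2 its ratio was -0.30 (-1.04 to 0.51). Btrc encodes a ubiquitin ligase subunit that marks PER proteins for decay. Cry1 and Cry2, the repressor partners of the PER proteins, had ratios above 0 in all 5 lineages, a direction that 13.1% of the 5527 genes shared. For Cry1 they ran from 0.05 in lymphocytes (23.4 and 24.2 CPM) to 0.61 in epithelial cells (10.1 and 15.4 CPM), with intervals above 0 in endothelial and epithelial cells. Cry2 ran from 0.17 to 0.33, with an endothelial interval whose lower bound was 0.00 and the others reaching below 0. Nfil3, a repressor of D-box genes, had ratios below 0 in all 5 lineages (9.86% of genes), from -0.06 in lymphocytes to -0.73 in epithelial cells, with intervals below 0 in stromal, epithelial and myeloid cells. Npas2, which can stand in for Clock, stayed under 6 CPM throughout. Hlf, the remaining D-box activator beside Dbp and Tef and also named after its values were seen, was highest in stromal cells, at 264 and 176 CPM (-0.58, -0.65 to -0.52). Its endothelial ratio was -1.15 (7.30 and 3.29 CPM), and all 5 of its ratios were below 0.

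Per1 is known to answer to acute stress and to glucocorticoids, so a list of genes that tissue dissociation induces and a list of glucocorticoid targets stand beside it. The 16 immediate early and heat shock genes had a median log2 ratio of 0.26 in endothelial, 0.55 in stromal, -1.05 in epithelial, -0.03 in myeloid and 0.35 in lymphocyte cells. Their intervals lay above 0 for 13, 15, 0, 7 and 12 genes, beside 31.2%, 28.3%, 28.2%, 17.4% and 21.6% of all genes tested in the same order. They lay below 0 for 1, 0, 15, 8 and 1, beside 30.1%, 27.5%, 21%, 32.9% and 13.3%. Their summed level was 4979 to 11785 CPM over the lineages in room air and 2782 to 12827 CPM in hyperoxia. In epithelial cells 10 of the 16 had a ratio of -1 or below (4.92% of all genes tested there) and 0 a ratio above 0, with Atf3 (140 and 20.6 CPM) and Hspa1a (244 and 61.6 CPM) lowest and Jund (-0.04) and Fosb (-0.19) highest, while the Per1 ratio there was 0.81. That epithelial value was not seen within AT2 or AT1, where the list had medians of -0.14 and -0.17 and summed levels of 2316 and 2373 CPM (AT2) and 3899 and 4079 CPM (AT1), room air first. The Per1 ratio was 0.89 in AT2 and 0.82 in AT1. The mix of epithelial cells differed between the libraries, and 1 cluster led by Scgb1a1, a club cell gene, held 21 room air and 0 hyperoxia cells at a median of 41392 UMIs. In the other lineages the list and Per1 lay on the same side except in myeloid cells, where the list was close to 0. The part of dissociation in the Per1 values was not tested.

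Of 12 glucocorticoid targets, 11 were in the files. Their median ratio was 0.33 in endothelial, 0.92 in stromal, -0.30 in epithelial, 0.08 in myeloid and 0.48 in lymphocyte cells. Of those at a mean of 10 CPM, 6 of 8, 11 of 11, 4 of 10, 5 of 10 and 8 of 9 had intervals above 0, and 1, 0, 6, 4 and 1 below 0, to be read against the same shares of all genes tested. In stromal cells all 11 had ratios above 0, led by Zbtb16, a zinc finger repressor (4.75 and 170 CPM, log2 ratio 5.16, 4.77 to 5.57), and Fkbp5, a chaperone of the glucocorticoid receptor (1.90 and 39.5 CPM, 4.38, 3.77 to 5.06). The lowest there were Nfkbia (0.38) and Dusp1 (0.74). Zbtb16 was also higher in endothelial (7.18 and 78.4 CPM) and epithelial cells (4.26 and 35.4 CPM), and Fkbp5 in myeloid cells (14.4 and 52.7 CPM) and lymphocytes (14.7 and 32.3 CPM). Klf9, a glucocorticoid target that is itself rhythmic, had ratios between 0.66 and 0.97 in all 5 lineages, with intervals above 0 in each. It was named after its values were seen. In epithelial cells Nfkbia (-1.24) and Dusp1 (-1.2) were the lowest of the list. They stood at -0.08 and -0.29 in AT2 and at -0.65 and -0.56 in AT1, and the list median was 0.08 in AT2 and 0.36 in AT1. Over the members at a mean of 10 CPM that median was 0.10 in AT2 and 0.06 in AT1. The share of the Per1 difference that goes with these genes was not tested, and the libraries cannot tell hormone state from oxygen.

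**Figure D5:**
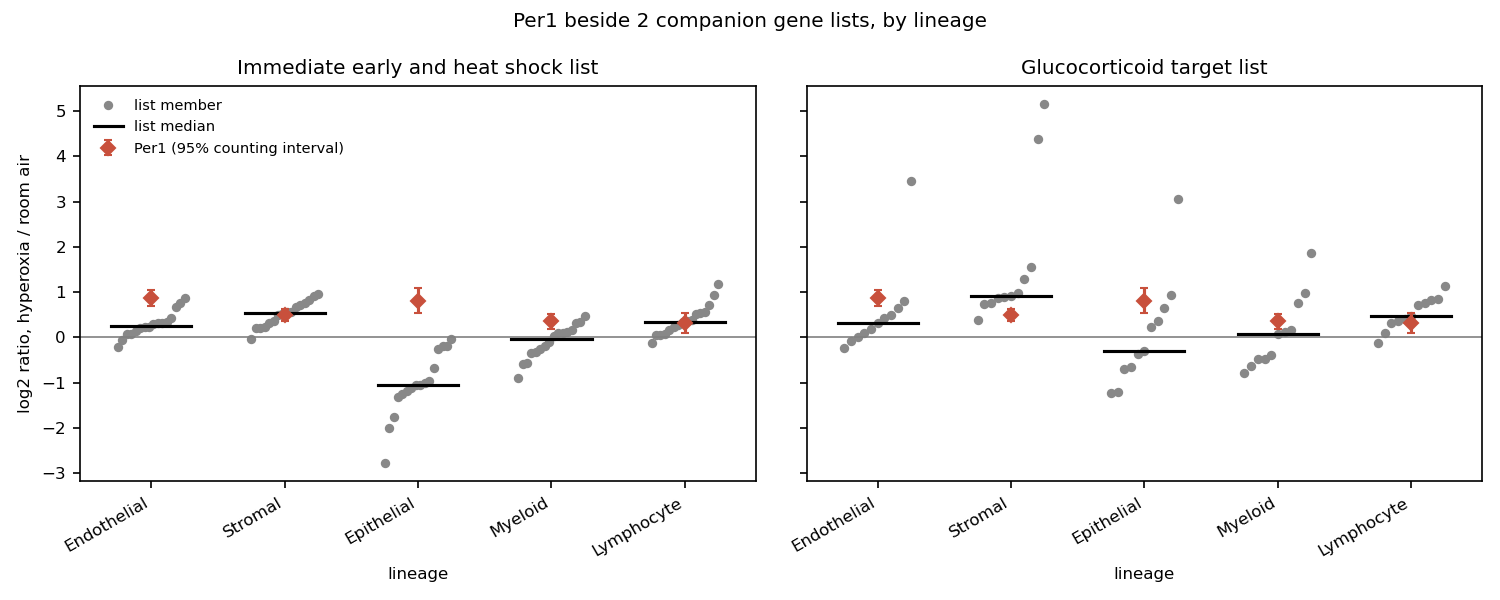
Log2 ratio, hyperoxia divided by room air (y axis), of Per1 (red diamonds with 95% counting intervals) in 5 lineages beside the members (grey points) and medians (black lines) of 16 immediate early and heat shock genes (left) and 11 glucocorticoid targets (right). In epithelial cells Per1 lies at 0.81 and the list medians at -1.05 and -0.30, which were -0.14 and 0.08 within AT2, and 2 grey points above 4 in stromal cells are Zbtb16 and Fkbp5.

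Across the 32 profiles of 16 cell types in 2 libraries, the genes most like each of 4 clock genes were found by Pearson's r of log2(CPM + 1) among 6939 genes. For Dbp these were Per3 (r = 0.83), Alkbh5 (0.83) and Spry2 (0.81). Nr1d1 was most like Prkrir (0.91), Nr1d2 (0.90) and Efemp2 (0.90). Per1 was nearest to Btg2 (0.82), Cwc25 (0.82) and Sde2 (0.81), and Arntl to Chd9 (0.78), Sesn3 (0.74) and Zfp398 (0.74). The profiles share libraries and lineages, and r is given as a description. The genes compared had to reach a mean of 20 CPM over these profiles, so that Dbp, Nr1d1 and Arntl, with 15.2, 11.8 and 8.46 CPM, could not appear as neighbours.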

How the data were processed

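Lung cells of 2 libraries were read from the deposited count matrices, which hold UMI counts per gene and barcode and which the authors made with Cell Ranger against mm10 (GRCm38). The methods and labels name another version than the submitters' processing notes (2.1.1) and the matrix headers (3.1.0), and the labels and the methods differ on the kit version. No other processed values were used and 0 columns were left unmapped. The 17457 barcodes are slightly more than the cells the study states. Filters of 500 genes as a minimum and 20% mitochondrial UMIs as a maximum left 15520 cells. Doublets were then removed by their nearness to simulated pairs at 0.8% per 1000 barcodes, which left 14152 cells. Log-normalized counts of 2000 variable genes, without clock genes, the companion lists, sex-linked or mitochondrial genes, gave 30 principal components, 20 nearest neighbours and Leiden clusters at resolution 1 (seed 1; igraph 0.11.9, leidenalg 0.10.2, scikit-learn 1.9.0). Lineages and then cell types within each were named from marker lists. A cluster led by platelet genes, clusters under 3 raised markers and clusters led by genes of another class stayed unnamed. Of the last kind, 1 endothelial cluster of 143 cells was led by cell cycle genes and 1 of 240 cells by H2-Aa and Lyz2. Of the clusters under 3 raised markers, 1 epithelial cluster held 18 room air and 196 hyperoxia cells and was led by Mgp, Tagln and Acta2. Unnamed clusters stayed in the lineage sums. Among named clusters, 1 interstitial macrophage cluster was led by Mgl2, Cd209a and Ccl17.

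UMIs were summed per library and lineage or cell type. Exact 95% intervals came from the Poisson distribution for levels, from the conditional binomial for ratios and from combined limits for differences of ratios (scipy 1.17.1). Counting error is all they cover. No test was run, since each group is a single library. The script was tested on simulated data. Total UMIs were 39593888 in room air and 111934936 in hyperoxia. Genes tested had a mean of at least 10 CPM. A share of genes past a limit is given as background. The zero floor was 3 counts. Named genes were the 10 members, Cry1, Cry2, Npas2, Nfil3, further clock genes at a log2 ratio of 1 in size in at least 2 lineages, the 2 highest and 2 lowest of each companion list, and the 3 genes most like Dbp, Nr1d1, Per1 and Arntl at a mean of at least 20 CPM. The members and all lists were chosen with earlier results of these data known. Alternatives changed cell filters, doublet removal, clustering, denominators (TMM of edgeR 4.0.16 in R 4.3.3), thinning, averaging and the 2-fold limit.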

Additional observations from a re-analysis of the deposited data

Results flagged for a closer look

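For 4 clock genes the ratio of hyperoxia over room air had opposite signs in a pair of lineages, with both counting intervals off 0. With 1 library per group the difference between lineages was not tested against the spread between mice. Nr1d2 had a log2 ratio of -0.21 in endothelial cells and of 0.14 in stromal, 0.34 in epithelial, 0.50 in myeloid and 0.53 in lymphocyte cells. As a mean over cell types its endothelial ratio was -0.005 and its epithelial ratio -0.24. Arntl had 0.88 in endothelial cells, on 28 and 126 UMIs, and -0.79 in myeloid cells, on 42 and 45 UMIs. Both pairs lay under the mean of 10 CPM. As a mean over cell types these ratios were 0.33 and -0.37. Clock had 0.25 in epithelial and -0.34 in myeloid cells. Neither sign held: the epithelial ratio was -0.56 with cells thinned to 2000 UMIs, and the myeloid ratio 0.07 as a mean over cell types. Ciart had 1.44 in epithelial cells, on 7 and 51 UMIs, and -0.99 in endothelial cells. Ciart in epithelial cells and Nr1d2 in myeloid cells also lay under the mean of 10 CPM.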

How the results depend on the processing

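Each of the 50 gene and lineage ratios was recomputed under up to 12 alternatives. Of the 599 values, 565 stayed inside the interval of the reported ratio and 34 did not. Of the 29 ratios with an interval off 0, 3 changed sign under some alternative (Clock in epithelial and myeloid cells, Nr1d2 in epithelial cells). Per1 and Per2 stayed above 0 in every lineage under all 12, and Dbp and Per3 stayed at -1.10 or below in endothelial cells. Per3 reached 0.01 in myeloid cells (cells thinned to 2000 UMIs) and 0.02 in lymphocytes (no doublet removal). The number of pairs at a log2 ratio of 1 or above, reported as 2, was 6 with cells thinned to 2000 UMIs, 5 as a mean over cells and 8 at a 1.5-fold limit, and the number at -1 or below, reported as 2, was 4, 4 and 6. The number of genes of 1 sign in all lineages, reported as 3, was 6 as a mean over cell types. Apart from the 1.5-fold limit, which admits smaller ratios, the cause was not tested. With no filter on low levels the share of genes at 1 or above rose to between 11.6% and 17.6% by lineage. The alternative restricted to cells of a named type was chosen after seeing the data and gave 2, 3 and 3 for these counts. In 14 pairs, 10 of them in myeloid cells or lymphocytes, a library had under 50 UMIs, and the interval of the ratio spanned at least 1.01 on the log2 scale. No paired analysis was possible because each group is 1 library.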
